A study of Homo sapiens with 6 samples.

Results

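The SOCS family holds 8 genes, CISH and SOCS1 to SOCS7, whose proteins restrain cytokine and growth factor signalling. Their transcripts were followed in K562 cells, an established line from a chronic myelogenous leukaemia that carries the BCR-ABL1 fusion kinase. The cells were kept for 3 h with DMSO, the vehicle, or with CA at 25 nM. CA is cortistatin A by the series title, and it is known to inhibit CDK8 and CDK19, the kinases of the Mediator complex. Each condition had 3 wells and each well 1 Affymetrix Human U133 Plus 2.0 array. Members were all probe sets of the platform annotation, other than controls, that carry 1 gene symbol and that symbol is 1 of the 8. This rule gave 25 of 54613 probe sets, and all 8 genes were found. No measured value entered the rule itself, but the members were chosen with earlier results of these data known. Of the 25, 19 were bright enough to be tested, with a mean over the 6 arrays of at least 3.49 on the log2 scale, the median of all probe sets. The other 6 were dimmer and are described separately.

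SOCS proteins are made in response to cytokines and switch off the signal that induced them. A cytokine receptor activates Janus kinases (JAKs), these phosphorylate STAT transcription factors, and the STATs induce SOCS genes. Each SOCS protein has an SH2 domain, which binds phosphorylated tyrosines, and a C-terminal SOCS box, which joins elongins and cullin 5 in a ubiquitin ligase. In cells with BCR-ABL1 the factor STAT5 is active without a cytokine, and CISH is a classic STAT5 target.

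Promoter sequence was taken from the RefSeq table of build GRCh38.p14, which matched 5 of the 8 genes, CISH, SOCS1, SOCS3, SOCS4 and SOCS6. The 250 bases before the gene start were searched on both strands for TTCNNNGAA, the palindromic core of STAT sites, and for the core of interferon-stimulated response elements, a GAAA pair with 2 bases between. The second motif was chosen after the sequences were seen, and neither overlaps the other in the windows shown. CISH, on the minus strand of chromosome 3 (chr3:50611775-50612024), held 4 copies of TTCNNNGAA, which start 241, 230, 129 and 112 bases before the gene start. SOCS1, on the minus strand of chromosome 16 (chr16:11256205-11256454), held 0 copies of TTCNNNGAA and 1 GAAA pair. These promoters are shown because CISH and SOCS1 had the largest fitted increases in CA among the members when each gene is read by its brightest probe set, and motif matches are in capitals. By the mean of all tested probe sets SOCS2 lay above SOCS1, since the change of CISH then exceeded that of SOCS2 by 0.26 and that of SOCS1 by 0.28.
CISH: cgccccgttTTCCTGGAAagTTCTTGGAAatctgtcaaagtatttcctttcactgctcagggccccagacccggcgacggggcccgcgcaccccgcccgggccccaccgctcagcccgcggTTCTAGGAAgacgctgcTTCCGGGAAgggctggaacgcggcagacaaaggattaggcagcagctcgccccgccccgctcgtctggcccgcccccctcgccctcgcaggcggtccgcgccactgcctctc
SOCS1: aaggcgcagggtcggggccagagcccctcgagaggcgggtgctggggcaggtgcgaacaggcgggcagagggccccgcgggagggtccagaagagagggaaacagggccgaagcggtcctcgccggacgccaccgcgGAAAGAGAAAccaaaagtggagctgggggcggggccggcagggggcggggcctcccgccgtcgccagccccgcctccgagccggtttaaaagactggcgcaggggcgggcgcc
Of 35116 promoter windows of the same length 6.57% held TTCNNNGAA at least once, 0.356% at least 2 times and 0.0142%, or 5 windows, 4 times. These windows include those of the members, so the CISH window is among the 5. A gene can have more than 1 window. The GAAA pair was in 3.02% of the windows. The windows of SOCS3, SOCS4 and SOCS6 held neither motif. For the members only the window at the outer end of the annotated gene was used. Sites near other transcript starts or further away were not searched, so a window without a match does not mean a promoter without a site. A match describes letters and is not a measured binding site. Among measured genes other than the members, the median log2 change was -0.012 for 9558 genes with no TTCNNNGAA copy, -0.016 for 713 genes with 1 copy and -0.014 for 29 genes with 2. No gene with more than 2 copies was among them, so this comparison holds no gene with as many copies as CISH.

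The arrays were alike. Each correlated with the others at 0.997 over all probe sets other than controls, and array medians lay between 3.47 and 3.52. CA array 1 stood apart from the other 5 on the second principal component, at -19.0 against 0.338 to 7.20. The log2 ratio of 3' over 5' signal of the actin and GAPDH control probe sets, a measure of RNA integrity and labelling, was 1.03 to 1.07 on DMSO arrays and 0.881 to 0.956 on CA arrays, so it moved with the treatment (exact permutation p = 0.1, 2-sided, the smallest that 3 against 3 arrays allow). Of 10 markers fixed for K562 cells, 7 had a probe set with 1 symbol, and all 7 lay at 8.38 or above in DMSO, among them GATA1 at 8.38 and the embryonic globin HBE1 at 13.28. Of 15 annotated markers of lymphoid, myeloid, epithelial and fibroblast cells, 10 passed the signal filter, with CD3D at 9.08, LYZ at 8.90 and EPCAM at 10.47 in DMSO, while MS4A1, CD14 and CDH1 lay between 2.56 and 2.60. By limma 0 of these markers were called and 4 were at an unadjusted p under 0.05, while with a prior variance that depends on signal level TAL1, LMO2 and TFRC were called higher in CA. The summed log2 level of the 7 K562 markers was 73.47 to 73.69 on DMSO arrays and 74 to 74.45 on CA arrays. That of the 5 epithelial and fibroblast markers was 29.8 to 29.96 on DMSO arrays and 30.07 to 30.61 on CA arrays. Both sums were thus higher on all CA arrays. In the second sum CDH1, below the filter, had a mean of 2.56 in DMSO and 2.83 in CA. The other 4 markers of that list had changes between -0.02 and 0.11. The sums overlapped for the 5 lymphoid markers (23.52 to 24.18 and 24.06 to 24.56) and for the 5 monocyte and granulocyte markers (20.24 to 21.03 and 20.62 to 21.06). The part of these differences in the results on the family was not tested. The RNA is of whole cultures, so fewer cells of a type and less RNA per cell cannot be told apart.

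CA was compared with DMSO by limma, which fits a linear model to each probe set and moderates its variance, over all 27307 tested probe sets. A probe set is called below when its Benjamini-Hochberg adjusted p over all of them is under 0.05. Changes are log2 differences, CA minus DMSO, and come with the model's standard error (SE) or 95% confidence interval. Nothing says that the wells came from separate cultures, so p-values measure the spread between these wells.

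Of the 19 tested probe sets of the family 1 was called, a rise of CISH, where 0.0952% of all tested probe sets were called, 0.0513% as rises and 0.0439% as falls. CISH was higher in CA on all 3 of its probe sets, by 1.28-fold to 1.40-fold. SOCS1, SOCS2 and SOCS3 each had 1 probe set higher in CA at an unadjusted p under 0.05, and SOCS6 had 1 lower, by 1.34-fold, but none of these was called. SOCS4, SOCS5 and SOCS7 had 6 tested probe sets, with changes between -0.13 and 0.08 and overlapping arrays on each. At an unadjusted p under 0.05 there were 6 higher and 1 lower among the 19, against 4.55% and 4.76% of all tested probe sets (9.31% in either direction). The CA arrays lay above all DMSO arrays for 8 of the 19 and below them for 1, against 7.09% and 8.52% of all tested probe sets (15.6% either way). The median change over the 19 was 0.02, and over all tested probe sets it was -0.01. Probe sets of 1 gene are annotated to transcripts of the same gene and are not independent.

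**Figure D1:**
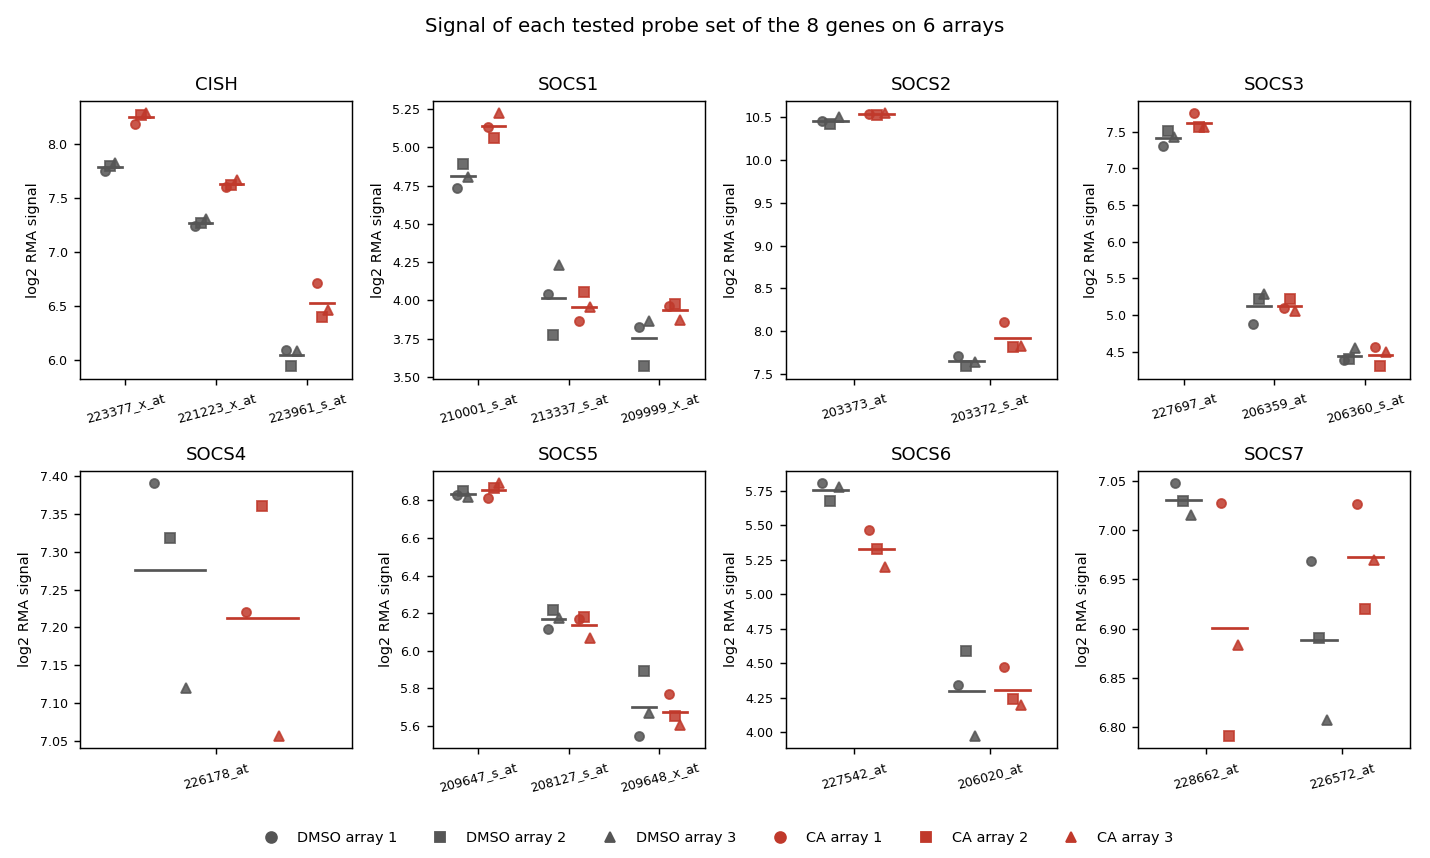
Each panel is 1 gene and plots the log2 RMA signal (vertical axis, a separate scale per panel) of its tested probe sets (horizontal axis) on the 6 arrays, grey for DMSO and red for CA, with bars at the group means. The 3 CISH probe sets and SOCS6 227542_at separate the groups in opposite directions, while the SOCS4, SOCS5 and SOCS7 arrays overlap.

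CISH (chr3:50606489-50611774, GRCh38.p14) encodes the cytokine-inducible SH2 protein, which occupies the receptor tyrosines that STAT5 would dock on. The called probe set, 223377_x_at, read 7.75, 7.79 and 7.83 on the DMSO arrays and 8.19, 8.27 and 8.28 on the CA arrays. All CA arrays lay above all DMSO arrays, and the gap between the groups, 0.37, was wider than the spread within either. The mean went from 7.79 ± 0.04 (SD, n = 3) to 8.25 ± 0.05 (SD, n = 3), a log2 change of 0.46 (95% confidence interval 0.34 to 0.57, SE 0.05, adjusted p = 0.0455 by limma) or 1.37-fold. It was the 34th largest fitted rise among the 27307 probe sets.

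The second CISH probe set, 221223_x_at, read 7.24, 7.27 and 7.31 in DMSO and 7.60, 7.62 and 7.66 in CA. Its change was 0.36 (0.25 to 0.46, adjusted p = 0.0728), with a gap of 0.30 between the groups. The third, 223961_s_at, read 6.09, 5.94 and 6.08 in DMSO and 6.71, 6.39 and 6.46 in CA. Here CA array 1 was the highest, and the change of 0.48 (0.26 to 0.71, adjusted p = 0.223) had the widest interval of the 3. Without CA array 1 it was 0.39. The suffixes _x_at and _s_at mark probe sets whose probes can match more than 1 transcript, and all 3 CISH probe sets carry 1 of them, so CISH has no value when such probe sets are left out.

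The call of CISH was narrow while its direction was stable. With any of the 6 arrays left out the change of 223377_x_at stayed between 0.44 and 0.49, and its adjusted p rose to between 0.115 and 0.287. With a prior variance that depends on signal level, a setting in which 1.04% of all tested probe sets were called, all 3 CISH probe sets passed, at adjusted p of 8.58e-05, 0.00135 and 0.0120. With the 3' over 5' control ratio as a covariate, a fit with 0 calls over all probe sets, the fitted change of 223377_x_at was 0.53 (adjusted p = 0.909), that of 221223_x_at 0.42 and that of 223961_s_at only 0.26. The ratio did not overlap between DMSO and CA arrays, so such a fit can hardly separate it from the treatment. Fitted changes with this covariate, here and below, are therefore imprecise.

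SOCS1 (chr16:11254417-11256204) encodes a protein that binds JAKs directly and blocks their catalytic activity. Its brightest probe set, 210001_s_at, read 4.74, 4.89 and 4.81 in DMSO and 5.14, 5.06 and 5.22 in CA. The groups did not overlap, and the change was 0.33 (0.18 to 0.48, adjusted p = 0.217), or 1.26-fold, not past the threshold. With the control ratio as a covariate it was 0.58 (adjusted p = 0.909). Probe set 209999_x_at gave 0.18 (-0.02 to 0.39), with a gap between the groups of 0.01. Without DMSO array 2 it gave 0.09, and with the control ratio as a covariate -0.16. Probe set 213337_s_at gave -0.06 (-0.34 to 0.23) with overlapping arrays and a spread of 0.23 (SD, n = 3) in DMSO. The SOCS1 probe sets thus disagreed in the sign of their fitted change, and the 2 dimmer ones lay close to the signal filter, at 3.85 and 3.99 over all arrays.

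SOCS2, which limits growth hormone receptor signalling, was read by a bright probe set, 203373_at, at 10.45, 10.41 and 10.50 in DMSO and 10.54, 10.52 and 10.54 in CA. The groups were separated by only 0.02, and the change was 0.08 (-0.03 to 0.18, adjusted p = 0.647). Probe set 203372_s_at read 7.72, 7.59 and 7.64 in DMSO and 8.11, 7.82 and 7.83 in CA, a change of 0.27 (0.06 to 0.48, adjusted p = 0.418). CA array 1 was again the highest, and without it the change was 0.17. Adjusted for the control ratio, this probe set changed by 0.04.

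SOCS3, which inhibits JAKs bound to gp130 and related receptors, showed a similar array pattern. Its brightest probe set, 227697_at, read 7.30, 7.51 and 7.42 in DMSO and 7.75, 7.56 and 7.57 in CA. The groups were separated by 0.05, and the change was 0.21 (0.03 to 0.40, adjusted p = 0.474), or 0.15 without CA array 1. The dimmer probe sets 206359_at and 206360_s_at overlapped between the groups, with changes of -0.01 and 0.01.

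SOCS6 (chr18:70289045-70330199), which encodes an adaptor known for binding insulin signalling proteins and the receptor KIT, had the largest fitted fall of the family. Probe set 227542_at read 5.81, 5.68 and 5.78 in DMSO and 5.47, 5.33 and 5.20 in CA. All CA arrays lay below all DMSO arrays with a gap of 0.21. The mean went from 5.75 ± 0.07 (SD, n = 3) to 5.33 ± 0.13 (SD, n = 3), a change of -0.42 (-0.61 to -0.24, SE 0.08, adjusted p = 0.196), the 41st largest fitted fall among the 27307 probe sets. This difference did not pass the threshold, while with the prior variance that depends on signal level it did (adjusted p = 0.0299). With any of the arrays left out the change stayed between -0.49 and -0.36, and with the control ratio as a covariate it was -0.78 (adjusted p = 0.909). The other tested SOCS6 probe set, 206020_at, did not share it, reading 4.34, 4.59 and 3.97 in DMSO and 4.47, 4.24 and 4.20 in CA, a change of 0.00 (-0.38 to 0.38). Its interval reached down to -0.38 and so overlaps that of 227542_at.

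SOCS4 and SOCS5 are known as regulators of the epidermal growth factor receptor, and SOCS7 as a binding partner of the adaptor NCK. SOCS4 226178_at lay between 7.12 and 7.39 in DMSO and between 7.06 and 7.36 in CA, with a log2 difference of -0.06 (-0.31 to 0.18), or -0.32 with the control ratio as a covariate. The 3 SOCS5 probe sets had log2 differences of 0.02 (-0.08 to 0.13), -0.03 (-0.16 to 0.09) and -0.03 (-0.25 to 0.20), so for SOCS5 209647_s_at a change as large as that of CISH lay outside the interval. The 2 SOCS7 probe sets had -0.13 (-0.29 to 0.03) and 0.08 (-0.05 to 0.22), of opposite sign and with overlapping arrays. The first was -0.08 without CA array 2 and the second 0.04 without DMSO array 3. Adjusted p for these 6 probe sets lay between 0.613 and 0.962.

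The 6 probe sets below the filter were 1 each for SOCS1, SOCS2, SOCS3, SOCS4, SOCS6 and SOCS7. In a fit without the filter their changes ran from -0.13 to 0.15, their arrays overlapped in every case, and adjusted p lay between 0.863 and 0.979.

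**Figure D2:**
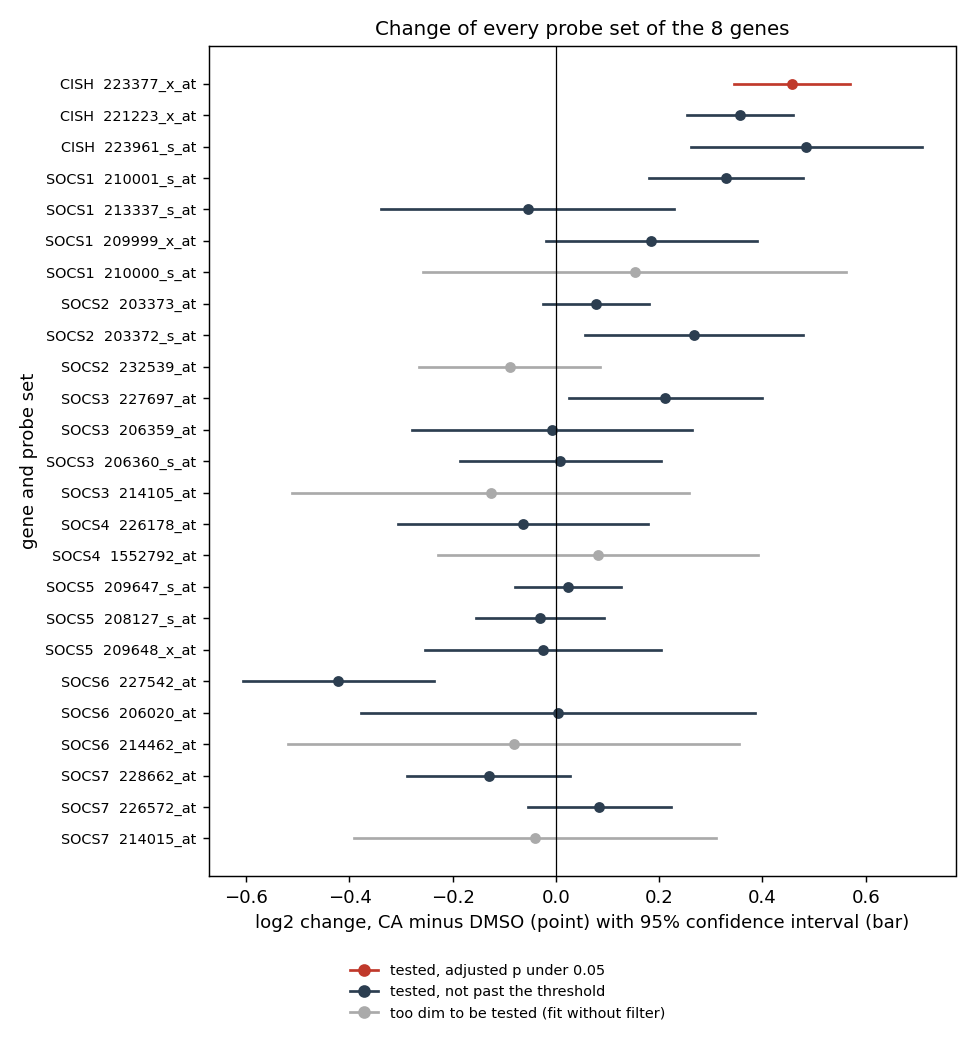
Each row is 1 probe set of the family, with its log2 change, CA minus DMSO, on the horizontal axis (point) and the 95% confidence interval of the model (bar). CISH 223377_x_at at 0.46 is the only probe set past the threshold, and SOCS6 227542_at at -0.42 is the only tested probe set whose interval lies below 0.

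The members were set against each other within arrays, taking the brightest tested probe set of each. All 7 pairs share CISH 223377_x_at, whose own arrays did not overlap, with a gap of 0.37. The pairs are therefore not independent, and a difference against a member with little change mostly restates the rise of CISH. The difference in log2 signal between CISH and another member increased in CA by 0.13 against SOCS1, 0.38 against SOCS2, 0.25 against SOCS3, 0.52 against SOCS4, 0.43 against SOCS5, 0.88 against SOCS6 and 0.59 against SOCS7. For 6 of the 7 pairs the CA arrays lay above all DMSO arrays in this difference (exact permutation p = 0.1, 2-sided, the smallest possible, and 0.117 after Benjamini-Hochberg adjustment over the 7 pairs). For SOCS3 they overlapped (exact permutation p = 0.2). With the mean of all tested probe sets of each gene in place of the brightest, the arrays did not overlap for SOCS3 either, at a difference of 0.36 (exact permutation p = 0.1). The difference against SOCS1 was then 0.28, and with the brightest probe sets and each array left out in turn it ran from 0.080 without CA array 2 to 0.15. Against SOCS6, whose fitted change had the opposite sign, the difference was 1.94, 2.12 and 2.05 in DMSO and 2.72, 2.94 and 3.08 in CA. This exact test thus cannot show at 0.05 that CISH and another member differed in their change.

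RMA sets all arrays to a common level, so the direction of small changes depends on that scale. Scaling to the 3' probe sets of the exogenous poly(A) control RNAs added 0.21 to every log2 change and moved the median of all tested probe sets from -0.01 to 0.20, the 5' probe sets added 0.04, and the hybridisation controls took away 0.06. CISH 223377_x_at was 0.67, 0.50 and 0.40 on these 3 scales and SOCS6 227542_at was -0.21, -0.38 and -0.48, so their opposite directions were kept. On the 3' control scale 8 of the 19 probe sets were called, all of them for CISH, SOCS1, SOCS2 and SOCS3 and all higher, but so were 3594 of all 27307 probe sets.

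**Figure D3:**
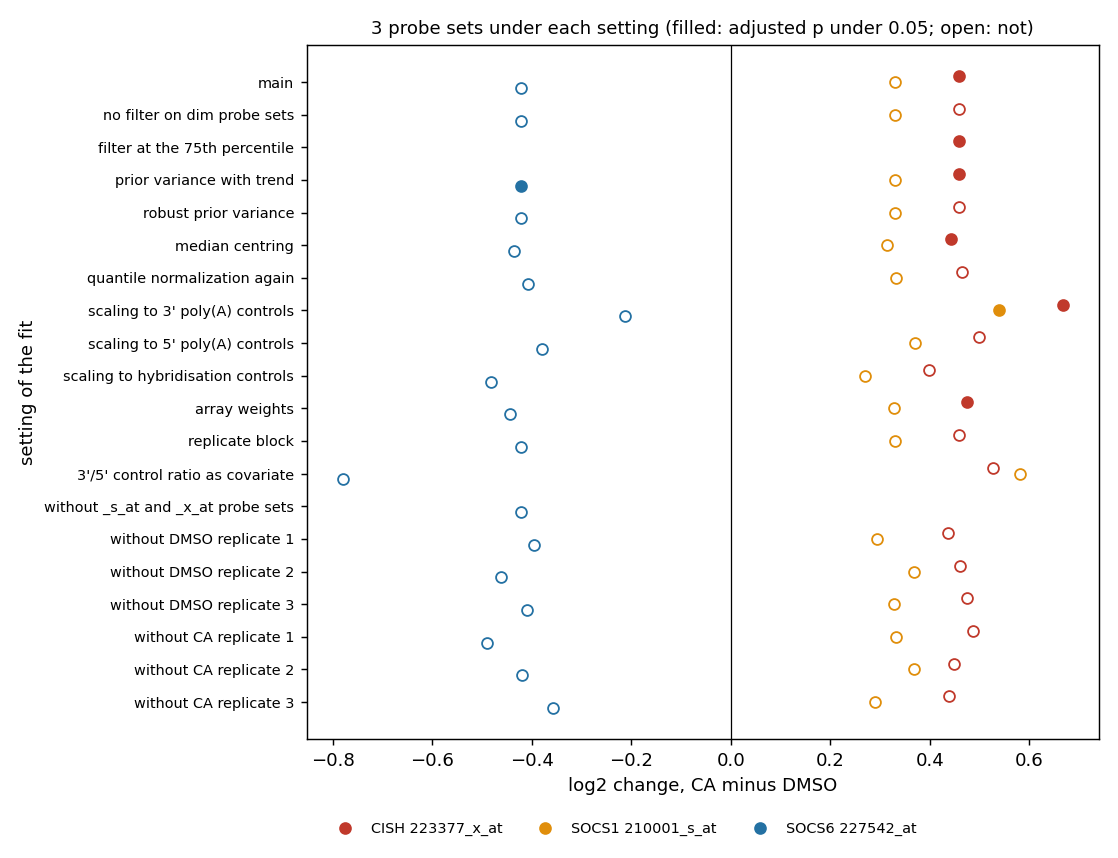
The log2 change, CA minus DMSO (horizontal axis), of CISH 223377_x_at, SOCS1 210001_s_at and SOCS6 227542_at is shown under each setting of the fit (vertical axis), filled where the adjusted p is under 0.05. CISH and SOCS1 stay above 0 and SOCS6 stays below 0 in every setting that kept them, and most points are open.

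By likeness over the 6 arrays, the 5 genes closest to CISH 223377_x_at among 3944 that varied by at least 0.3 were IQCN (Pearson r 0.994), TNFAIP3 (0.993), MYLIP (0.992), LMO2 (0.991) and MYC (0.991). Of these TNFAIP3 and MYC were called, with rises of 0.51 and 0.50. Closest to SOCS6 227542_at were THEMIS2 (0.988), ADGRE5 (0.984), ZBTB42 (0.977), NIN (0.973) and TIGD1 (0.972), with log2 differences between -0.34 and -0.20 and none called. These correlations share 6 arrays in 2 groups and are a description only.

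Genes around the family in the pathway gave few calls. Of 12810 measured genes, each read by its brightest tested probe set, 0.0859% were called, 8.61% had an unadjusted p under 0.05 and the median change was -0.01. Of 26 measured cytokine receptors 0 were called and 6 were at an unadjusted p under 0.05, 3 in each direction, with a median of 0.00. The receptor with the smallest p was IL9R at 0.40 (adjusted p = 0.143), and the brightest was IL6ST, the gp130 chain, at 0.18. Of 9 measured ligands 0 were called and 1 was at p under 0.05, with a median of 0.00. It was IL6, at 0.51 (adjusted p = 0.0723), and the brightest, IL23A, gave 0.07. Both IL6 and IL9R were low in signal, not far above the filter at 3.49. IL6 had a mean of 4.25 in DMSO and 4.76 in CA, and IL9R 3.95 and 4.35.

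Of 9 measured JAKs and STATs 0 were called, with a median of 0.01. JAK2 alone was at an unadjusted p under 0.05, with a change of 0.28 (0.11 to 0.46, adjusted p = 0.331), and STAT3, the brightest, gave -0.10. STAT5A and STAT5B gave 0.01 (-0.09 to 0.11) and 0.02 (-0.07 to 0.11). Of 15 other measured inhibitors of the pathway, phosphatases, PIAS proteins and CBL among them, 0 were called and 2 were at p under 0.05, both lower, with a median of -0.03. PTPN6, the phosphatase SHP-1, gave -0.15 (adjusted p = 0.439), and PTPN11, the brightest, 0.00.

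Of 12 measured partners of the SOCS box in the ubiquitin ligase 0 were called by limma and 0 were at an unadjusted p under 0.05. Their changes ran from -0.08 for DCUN1D1 to 0.01, with a median of -0.04, and ELOC, the elongin C gene and the brightest, gave -0.02. Of 14 other measured genes with a SOCS box 0 were called and 3 were at p under 0.05, all lower, with a median of -0.05. ASB8 gave -0.18 (adjusted p = 0.364) and WSB2, the brightest, -0.06.

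Among 15 other measured STAT5 targets, a list written with an earlier result on such targets known, 2 were called and in opposite directions, MYC at 0.50 (0.41 to 0.60) and EGR1, an immediate early gene, at -1.80 (-2.09 to -1.51). At an unadjusted p under 0.05 there were 6 higher and 3 lower, the median was 0.05, and TFRC, the transferrin receptor and the brightest, gave 0.12 (adjusted p = 0.442). With the prior variance that depends on signal level, where 1.23% of measured genes were called, 5 of the 15 were called, MYC, PIM1 (0.46), PIM2 (0.22) and TFRC higher and EGR1 lower. In that setting IL6 was called among the ligands, and 0 genes were called among the receptors, the JAKs and STATs, the other inhibitors, the ligase partners and the other genes with a SOCS box.

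**Figure D4:**
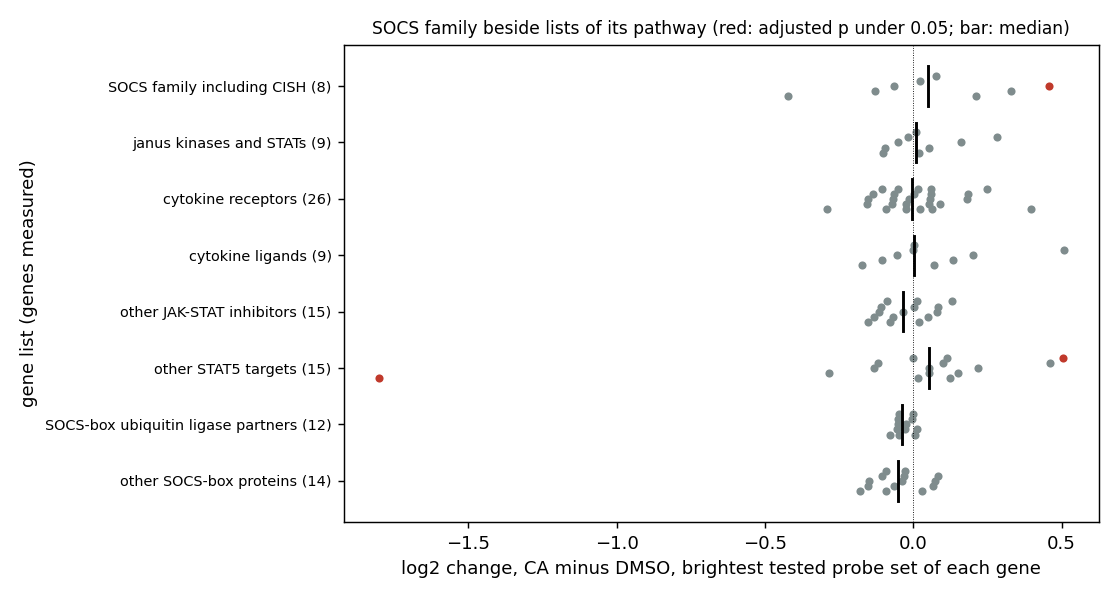
Each point is 1 gene at its log2 change, CA minus DMSO (horizontal axis), grouped by list (vertical axis, with the number of genes measured), red where called and with a bar at the median of the list. CISH at 0.46 is the only red point of its family, and EGR1 at -1.80 and MYC at 0.50 are those of the other STAT5 targets.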

How the data were processed

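Expression was measured on 6 arrays. The authors deposited log2 expression values for 54675 probe sets, made with RMA in the affy package per the submitters' processing notes, with no version given. RMA subtracts background, equalises intensity distributions and summarises probes, so shared changes are not visible and changes of dim probe sets are compressed. Of the probe sets 62 are controls. Genes were named from the platform annotation, where 41091 probe sets had 1 symbol, 1801 several and 11721 none in that table. Symbols were checked by gene ID in a RefSeq table (41037 found, 0 differing).

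Groups followed the sample titles. The model was fitted in limma 3.58.1 under R 4.3.3 (functions lmFit and eBayes, 2-sided p, no block) to the 27307 probe sets at or above a mean of 3.49. The number of arrays limits the precision, and the median SE of a change was 0.07. Same-numbered wells were checked for pairing, and their deviations from group means correlated at -0.07, 0.01 and 0.06. The wells numbered 3 were each other's closest match in the other group, while those numbered 1 and 2 were not. Deviations from means of 3 arrays can neither show nor exclude pairing. The model used no block, and with the replicate as a block 0 probe sets were called.

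In a simulated data set with independent noise, 100 changes of 1.5-fold and 100 of 2-fold were added together among 27307 probe sets. Of these 62 and 96 were called, with 7 unchanged probe sets called in the same run. The Benjamini-Hochberg cutoff is looser when more probe sets change, and in the real data only 26 were called. The simulated shares can thus overstate the sensitivity of the real comparison. The called CISH change, 1.37-fold, is smaller than either simulated size. Promoters and plots used Python 3.11.15. The members and lists were chosen with earlier results of these data known. Named were all members, the called genes of each list or the gene with the smallest p, the brightest gene of each list, and the 5 genes most alike CISH and the member with the largest fitted fall; PIM1, PIM2, STAT5A, STAT5B and marker genes were named after their values were seen. Alternatives were other filters, variance priors, scalings, weights, covariates and probe sets, and each array left out.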

Additional observations from a re-analysis of the deposited data

How the results depend on the processing

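Of the 19 tested SOCS family probe sets 1 was called, and of all probe sets 26. With no filter on dim probe sets these counts were 0 of 25 and 5 of 54613, and with a filter at the 75th percentile 3 of 11 (all CISH) and 162 of 13654. On the same 19 and 27307 probe sets as the main fit, a trend in the prior variance gave 4 and 285. A robust prior variance gave 0 and 17. Scaling to the 3' poly(A) controls gave 8 and 3594, to the 5' controls 0 and 27, and to the hybridisation controls 0 and 17. Quantile normalization again gave 0 and 27, the replicate block 0 and 0, the 3'/5' control ratio as a covariate 0 and 0, and leaving out _s_at and _x_at probe sets 0 of 8 and 1. Leaving out each array in turn gave 0 to 0 for the family and 2 to 5 over all. Median centring and array weights kept the call of CISH.

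Reversed fitted changes, all of probe sets that were not called, were as follows. On the 3' control scale SOCS1 213337_s_at had 0.15, SOCS3 206359_at 0.20, SOCS4 226178_at 0.15, SOCS5 208127_s_at 0.18, SOCS5 209648_x_at 0.18 and SOCS7 228662_at 0.079. On the 5' control scale SOCS3 206359_at had 0.033, SOCS5 208127_s_at 0.010 and SOCS5 209648_x_at 0.016. On the hybridisation control scale SOCS3 206360_s_at had -0.051, SOCS5 209647_s_at -0.036 and SOCS6 206020_at -0.056. Array weights gave 0.038 for SOCS3 206359_at, -0.0098 for SOCS3 206360_s_at and -0.059 for SOCS6 206020_at, and median centring gave -0.0063 for SOCS3 206360_s_at and -0.011 for SOCS6 206020_at. The control ratio as a covariate gave -0.16 for SOCS1 209999_x_at and 0.0055 for SOCS5 209648_x_at. With each array left out in turn the ranges were -0.18 to 0.052 for SOCS1 213337_s_at, -0.13 to 0.072 for SOCS3 206359_at, -0.047 to 0.084 for SOCS3 206360_s_at, -0.14 to 0.014 for SOCS4 226178_at, -0.058 to 0.0041 for SOCS5 208127_s_at, -0.10 to 0.069 for SOCS5 209648_x_at and -0.16 to 0.15 for SOCS6 206020_at. The cause of these changes was not tested.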
